A study of Mus musculus with 189 samples.

Results

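Setd3, Setd4, Setd5, Setd6 and Setd7 are 5 of the 192 mouse genes that were measured by microfluidic quantitative PCR in oocytes and preimplantation embryos. They were chosen by name, as the SETD-numbered genes other than Setd1a, Setd1b, Setd2 and Setd8, and all 5 belong to the assays that the authors marked as passed (36 were marked as failed). Each encodes a protein with a SET domain, the fold in which many lysine methyltransferases transfer a methyl group from S-adenosylmethionine to a target protein. Setd3, Setd4 and Setd6 also share a substrate-binding domain first known from the plant enzyme that methylates Rubisco, and the best-known targets of Setd3 and Setd6 are not histones. In the oocyte, transcripts are stored and not newly made, and the embryo starts its own transcription after fertilization, so a transcript level in these cells reflects both what is left of the maternal store and what is new.

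The oocytes and embryos came from superovulated F1 females of C57BL/6 and DBA/2 parents, mated to C57BL6 males for embryos, with no genetic change. Cumulus cells were removed with hyaluronidase, and embryos were cultured in KSOMaa medium at low oxygen. Single blastomeres were freed with proteinase and trypsin. The effect of culture and of these enzymes was not tested. The stage samples that the study kept were 11 MII oocytes (mature unfertilized eggs), 14 zygotes, 21 samples of the 2-cell stage, 7 of the 3-cell stage, 12 of the 4-cell stage, 27 of the 8-cell stage and 76 blastomere samples of 16-cell and 32-cell embryos. Of these late samples, 26 came from 2 embryos of the 16-cell stage and 50 from 7 embryos of the 32-cell stage, and 52 of the 76 were single cells, the others being small groups of cells. Beside these there were 6 whole late embryos (3 morulae and 3 blastocysts), an isolated inner cell mass (ICM), an isolated trophectoderm (TE, the outer layer of the blastocyst) and 10 samples of embryonic stem cell (ESC) RNA. The samples were counted as 58 oocytes or embryos, since the blastomeres of an embryo are not independent. The 11 blastomeres of the 2-cell stage with no named embryo entered as a single unit.

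The value measured was the cycle threshold (Ct), the PCR cycle at which a product is seen, so that a lower Ct means more transcript and a Ct of 30 marks no detection. Levels below are log2 levels: 30 minus the Ct, minus the mean of the same value for the control genes Hnrnpr, Ssu72 and Ube2e1 in that sample, on which 1 unit is 1 PCR cycle. Assays differ in efficiency, so levels of different genes were not set against each other. The median Ct of the 3 control genes rose from 12.9 in MII oocytes to 16.3 at the 2-cell stage and 17.7 at the 32-cell stage, so that less template stood behind each late sample. The cell types carried their markers in MII oocytes, where the mean level of Dazl, ZP3 and Dppa3 was 1.66 to 2.27, and in ESC RNA, where the mean of Pou5f1, Sox2, Nanog, Esrrb and Zfp42 was 2.69 to 3.18. The isolated ICM held all 6 TE markers tested at a mean level of 0.59, beside 0.95 for its 8 ICM markers, so it was not free of TE transcripts. In the isolated TE these means were 1.46 for TE markers and -2.43 for ICM markers.

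Setd5 and Setd6 were detected in every stage sample. Setd3 was missed in 1 (a blastomere of the 2-cell stage) and Setd4 in 8, while Setd7 was detected in 45. Among the 4 well-detected genes, 3 kinds of course were seen. Setd3 and Setd6 were high in the oocyte, low at the 4-cell and 8-cell stages and higher again in the late embryo. Setd5 had stage means between -2.23 (8-cell) and -1.23 (2-cell) up to the 16-cell stage and was highest at the 32-cell stage, with 0.68. Setd4 had higher means from the 4-cell stage on than in oocytes and zygotes. Stages were compared with limma on the means of oocytes or embryos, and the p-values from this fit were adjusted by Benjamini-Hochberg over all passed assays. The choice of control genes bears on every direction given here. The 3 control genes also moved against each other. From MII oocytes to whole blastocysts the median Ct went from 13.85 to 14.70 for Hnrnpr and from 13.62 to 11.26 for Ssu72. For Ube2e1 it was 11.35 and 11.43. In the normalized table that the authors deposited, the values are relative to Gapdh, Hspa8 and Lmnb1, and on that scale the median of all assays fell by 3.91 from MII oocytes to the 16- and 32-cell embryos, against 0.35 on the scale used here and 0.02 with the sample median as the reference.

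**Figure D1:**
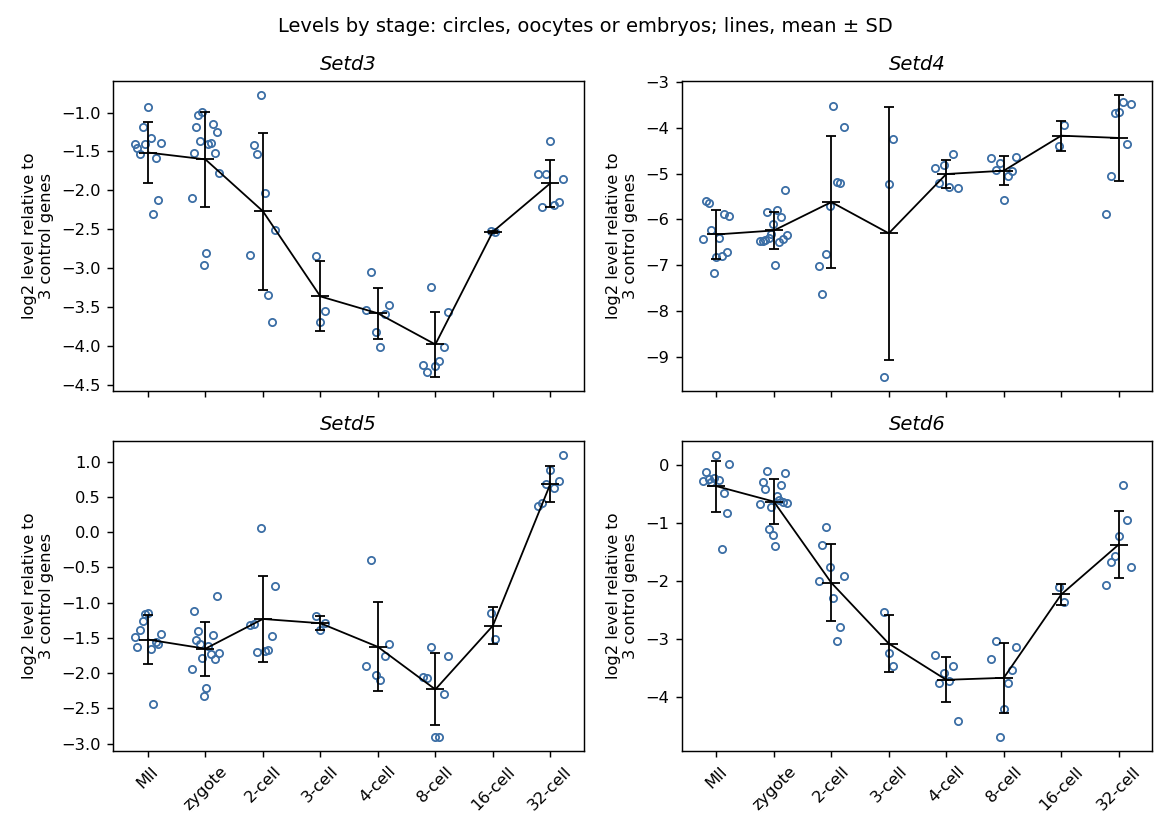
Levels of Setd3, Setd4, Setd5 and Setd6 by stage (y axis, log2 level relative to 3 control genes; x axis, stage). Circles are oocytes or embryos, with blastomeres averaged within an embryo, and lines join the means with their SD. Setd3 and Setd6 dip between the 2-cell and 16-cell stages, and all 7 embryos of the 32-cell stage lie above every other embryo for Setd5, whose means there lie between 0.37 and 1.09.

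Setd3, which methylates actin on a histidine residue, lies on chr12:108106431-108179345 of GRCm38.p6. In the 11 MII oocytes its level ran from -2.30 through a median of -1.41 to -0.93, and in the 14 zygotes from -2.96 through -1.40 to -0.99. In the 8 units of the 2-cell stage it ran from -3.70 through -2.27 to -0.78, the widest spread of any stage. The 3 whole 2-cell embryos had -3.35, -3.70 and -2.51. The unit of 11 blastomeres with no named embryo, which holds the undetected sample, had -2.83. The remaining 2-cell units had -1.42, -1.53, -0.78 and -2.03, and the first of these averages 3 samples. Some of their samples are labelled as blastomeres but carry no blastomere number, so whether each was a single blastomere is not known. The 3 embryos of the 3-cell stage had -2.85, -3.70 and -3.55. The 4-cell embryos lay between -4.01 and -3.06 and the 8-cell embryos between -4.34 and -3.25, so that neither group overlapped with the oocytes. The share of all assays that separate without overlap was not computed, here or for the other members. The level was -2.53 and -2.54 in the 2 embryos of the 16-cell stage and between -2.22 and -1.36 in the 7 of the 32-cell stage, all above the 8-cell embryos. From MII oocytes to the 8-cell stage Setd3 fell by 2.47 ± 0.28 (SE; adjusted p = 1.3e-11, limma; 54.5% of all assays fell). Between the 8-cell and 32-cell stages it rose by 2.07 ± 0.30 (adjusted p = 7.5e-08; 44.2% of all assays rose), a rise that turns into a difference of -0.96 on the scale of the deposited normalized table (adjusted p = 0.0093). The direction of the fall was the same on that scale. Late embryos lay 0.53 ± 0.26 below MII oocytes (difference -0.53, adjusted p = 0.0498), which did not pass with the sample median as reference (-0.21, adjusted p = 0.44) or without Ssu72 as a control gene (-0.05, adjusted p = 0.87). In the order of its stage means (MII, zygote, 32-cell, 2-cell, 16-cell, 3-cell, 4-cell, 8-cell), no neighbouring pair differed at an adjusted p under 0.05.

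Setd6, known to methylate the NF-kB subunit RelA, lies on chr8:95715634-95721507 and was the member with the greatest fall. It ran from -1.44 through -0.25 to 0.18 in the 11 MII oocytes and from -1.39 through -0.62 to -0.09 in the zygotes. The 2-cell units lay between -3.03 and -1.06, the 3-cell embryos at -2.53, -3.24 and -3.46, the 4-cell embryos between -4.41 and -3.27 and the 8-cell embryos between -4.69 and -3.02. No oocyte or zygote overlapped with any 3-cell, 4-cell or 8-cell embryo, though how many other assays separate in this way was not counted. The 16-cell embryos had -2.10 and -2.35, and the 32-cell embryos ran from -2.07 through -1.57 to -0.33, again above every 4-cell and 8-cell embryo. Setd6 fell by 3.34 ± 0.26 (SE) from MII oocytes to the 4-cell stage (adjusted p = 1.0e-16, limma; 52.6% of all assays fell). At the 32-cell stage it was 2.34 ± 0.28 above the 4-cell stage (adjusted p = 3.4e-10; 35.9% of all assays rose), which on the scale of the deposited normalized table is a difference of -0.88 (adjusted p = 0.022). The late embryos did not return to the oocyte level. The 16- and 32-cell embryos lay 1.20 ± 0.23 below the MII oocytes (difference -1.20, adjusted p = 4.1e-06), and on every scale tried this difference kept its sign. In the order of its means (MII, zygote, 32-cell, 2-cell, 16-cell, 3-cell, 8-cell, 4-cell), the zygote lay above the 32-cell stage (adjusted p = 0.0034; 42.3% of all assays were lower at the 32-cell stage) and the 32-cell stage above the 2-cell stage (adjusted p = 0.023; 30.1% were higher at the 32-cell stage). The other neighbours did not differ beyond their spread.

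Setd3 and Setd6 had the courses most like each other. Across the 8 stage means, Pearson's r between them was 0.98, and each ranked first among all other assays for the other gene. Next in likeness to Setd3 came Prdm2 (r = 0.96) and Kdm6b (r = 0.96), and to Setd6 Kdm6b (r = 0.97) and Prdm2 (r = 0.94). Prdm2 encodes a PR-domain protein and Kdm6b a histone H3 demethylase. These coefficients describe 8 points that share samples and control genes, and no test was made. Since these 2 members move together, the 250 bases before a RefSeq transcript start of each (GRCm38.p6) are shown, with every CG dinucleotide in capitals. Both windows lie on the strand of the gene, chr12:108179285-108179534 (minus strand) for Setd3 and chr8:95715663-95715912 (plus strand) for Setd6.
Setd3: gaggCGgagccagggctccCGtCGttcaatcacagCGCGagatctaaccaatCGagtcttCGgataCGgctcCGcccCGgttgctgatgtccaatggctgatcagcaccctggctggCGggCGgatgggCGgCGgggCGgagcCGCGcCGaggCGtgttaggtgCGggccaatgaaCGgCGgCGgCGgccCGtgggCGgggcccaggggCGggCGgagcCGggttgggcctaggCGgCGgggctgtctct
Setd6: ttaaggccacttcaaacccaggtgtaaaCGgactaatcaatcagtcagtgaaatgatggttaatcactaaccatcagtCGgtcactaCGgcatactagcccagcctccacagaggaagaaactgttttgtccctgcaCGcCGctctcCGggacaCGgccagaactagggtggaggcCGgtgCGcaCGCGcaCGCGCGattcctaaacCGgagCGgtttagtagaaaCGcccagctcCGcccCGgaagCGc
A second RefSeq window of Setd3, on chr12:108179242-108179491, overlaps the one shown and holds 33 CG dinucleotides and 75.6% G and C. The Setd3 window shown holds 31 CG dinucleotides and 72.0% G and C, and the Setd6 window holds 20 and 56.4%, against a median of 6 CG over the 32851 windows of all genes. The motif CCAAT, searched on both strands, occurs 3 times in the Setd3 window, is not in the Setd6 window and is held by 33.8% of all windows. GGGCGG, on both strands and with overlapping matches counted, occurs 7 times in that of Setd3 and in 1 place in that of Setd6, and 32.7% of all windows hold it. The window of Setd5, on chr6:113104685-113104934, has no CG and 36.8% G and C, and lies inside the annotated gene (chr6:113077262-113153432), so that it is not before the outermost start. The Setd6 window likewise lies inside the annotated span of its gene, and the Setd3 window overlaps the end of its own. These are descriptions of letters and were not tied to the measured levels by any test.

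Setd5 is the closest relative of Mll5 (Kmt2e) in the mouse, is found with the HDAC3 and NCoR corepressor complex, and its own methyltransferase activity is debated. It ran from -2.44 through -1.49 to -1.15 in MII oocytes, from -2.33 through -1.67 to -0.90 in zygotes and from -1.70 through -1.39 to 0.06 in the 2-cell units. The 3-cell embryos had -1.19, -1.39 and -1.29, and the 4-cell embryos ran from -2.09 through -1.83 to -0.39. The 8-cell embryos were lowest, from -2.90 through -2.07 to -1.62, and the 16-cell embryos had -1.14 and -1.51. All 7 embryos of the 32-cell stage measured as blastomeres were higher than every oocyte or embryo of the other stages, from 0.37 through 0.67 to 1.09. The 3 whole blastocysts, which are not among these 7, had lower levels of -0.08, -0.46 and 0.01, and the 3 whole morulae had -0.94, -1.15 and -1.12. The share of all assays that set the same 7 embryos apart was not computed. Between the 4-cell and 8-cell stages Setd5 fell by 0.60 ± 0.25 (SE; adjusted p = 0.039, limma), but by only 0.13 with the sample median as reference (difference -0.13, adjusted p = 0.65). The 4-cell embryo at -0.39 lay far from the others, and without it the difference was -0.36 (adjusted p = 0.24), an alternative chosen after seeing the data. Between the 16-cell and 32-cell stages it rose by 2.01 ± 0.36 (adjusted p = 4.4e-05). With the sample median as reference this rise was 1.76 (adjusted p = 3.1e-05), and on the scale of the deposited normalized table it was 0.85 (adjusted p = 0.096), where the median of all assays fell by 0.99. Without normalization the difference was 0.04 (adjusted p = 0.96), a value into which the amount of material in each sample, single cells or small groups, also enters. Against MII oocytes the 16- and 32-cell embryos were higher by 1.76 ± 0.20 (adjusted p = 2.6e-11), a difference that turns to -1.80 (adjusted p = 1.5e-10) on the scale of the deposited table. The difference was 2.11 above the median difference of all assays, a value in which any reference cancels by construction, so it is no check of the direction. In the order of its stage means, the 32-cell stage stood apart from the 2-cell stage below it by 1.91 (adjusted p = 3.0e-10), the 8-cell stage stood below the zygotes (adjusted p = 0.0099; 53.2% of all assays were lower), and no neighbours between these 2 ends (2-cell, 3-cell, 16-cell, MII, 4-cell, zygote) differed. Among the assays with the most similar course over the 8 stage means were Sox17 (r = 0.95) and Trim28 (r = 0.83). Sox17 encodes an endoderm transcription factor and was largely undetected before the 32-cell stage, where its stage mean was -6.24.

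Setd4, a less studied member of the same branch as Setd3 and Setd6, lies on chr16:93583457-93604791. It was detected in all 11 MII oocytes, from -7.18 through a median of -6.41 to -5.60, and in all 14 zygotes, from -7.00 through -6.37 to -5.35. It was not detected in 3 of 21 samples of the 2-cell stage, 2 of 7 of the 3-cell stage and 3 of 50 of the 32-cell stage, and an undetected sample enters at a Ct of 30, which lowers the mean of its embryo. The 2-cell units ran from -7.62 through -5.45 to -3.52. The 3-cell embryos had -9.44, -5.22 and -4.25, and the first of these holds both undetected samples of that stage. The 4-cell embryos lay between -5.31 and -4.57 and the 8-cell embryos between -5.58 and -4.64. The 16-cell embryos had -4.40 and -3.94, and the 32-cell embryos ran from -5.88 through -3.69 to -3.43. Setd4 was higher by 1.32 ± 0.46 (SE) at the 4-cell stage than in MII oocytes (adjusted p = 0.0078, limma; 25.0% of all assays rose), and by 2.12 ± 0.40 in the 16- and 32-cell embryos (adjusted p = 4.8e-06). The first of these did not pass on the scale of the deposited table (0.72, adjusted p = 0.14). The second difference was 2.45 with the sample median as reference, turned to -1.44 (adjusted p = 0.00093) on the scale of the deposited table, and was 2.47 above the median difference of all assays. No pair of neighbours in the order of its means (16-cell, 32-cell, 8-cell, 4-cell, 2-cell, zygote, 3-cell, MII) differed at an adjusted p under 0.05. The courses most like it were those of Xist (r = 0.93), Lrpap1 (r = 0.90) and Nanog (r = 0.89). Nanog was not detected in any of the 11 MII oocytes, where its mean was -17.08, and Xist had a mean of -17.07 in zygotes. Such means carry the Ct of 30 that stands for no detection, so the coefficients of Xist and Nanog rest partly on it.

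Step by step, the 4 well-detected members passed the test 7 times over the 7 successive steps. In a single step 1.92% to 68.6% of all assays passed, so the count alone does not set these members apart. From MII oocytes to zygotes none of them passed, with differences between -0.27 and 0.09, and 1.92% of all assays passed (limma; the unadjusted p was above 0.05 for each member too). From zygotes to the 2-cell stage 2 of them fell, Setd3 by 0.67 (adjusted p = 0.017) and Setd6 by 1.40 (adjusted p = 2.2e-07), where 39.1% of all assays fell. The fall of Setd3 was not shared by all 2-cell units. Whole embryos lay between -3.70 and -2.51, and the unit with an undetected sample at -2.83. The remaining units lay between -2.03 and -0.78, beside a zygote mean of -1.60. Between the 2-cell and 3-cell stages only Setd6 passed, falling by 1.05 (adjusted p = 0.047), where 7.05% of all assays fell. This call was lost with the sample median (adjusted p = 0.052), on the scale of the deposited table (adjusted p = 0.26), without normalization (-0.26, adjusted p = 0.88) and without either the second or the last of the 3-cell embryos (adjusted p = 0.31 and 0.34). Between the 3-cell and 4-cell stages none passed, beside 3.85% of all assays. Between the 4-cell and 8-cell stages the fall of Setd5 was the only call, beside 35.9% of all assays that fell. Between the 8-cell and 16-cell stages Setd3 rose by 1.45 (adjusted p = 0.015) and Setd6 by 1.44 (adjusted p = 0.0074), against 19.9% of all assays that rose. Both rises turn to differences of -0.43 and -0.44 on the scale of the deposited table and did not pass with the sample median as reference (adjusted p = 0.069 and 0.064). In the same step Setd5 differed by 0.90 (adjusted p = 0.053). Between the 16-cell and 32-cell stages Setd5 alone passed, with 8.97% of all assays rising, while Setd3 differed by 0.62 (adjusted p = 0.43) and Setd6 by 0.86 (adjusted p = 0.19). The 16-cell stage rests on 2 embryos. Without the first of them 4 steps passed in place of 7, and without the other 5 passed.

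Of the other SETD-named genes assayed (Setd1a, Setd1b, Setd2, Setd8, Setdb1 and Setdb2), 4 of 6 were lower in the 16- and 32-cell embryos than in MII oocytes and none was higher, with a median difference of -1.23. Of all assays 46.8% were lower and 37.8% higher. Among the members, Setd6 and, narrowly, Setd3 were lower and Setd4 and Setd5 higher in that comparison, in which 84.6% of all assays passed. Setd7 was higher by 3.28 (adjusted p = 0.033), a value that rests on how undetected samples enter. The lowest of the other SETD-named genes was Setdb2 (-2.84, adjusted p = 2.4e-15). Of 32 SET-domain methyltransferase genes outside the members, 10 were higher and 16 lower in the same comparison, from Smyd1 (9.52) to Prdm6 (-7.75), and their median was -0.69. Between the 16-cell and 32-cell stages 4 of the 32 rose and none fell, where 8.97% of all assays rose. Between the 8-cell and 16-cell stages 7 rose and 1 fell, where 19.9% of all assays rose. Both counts lie near the share of all assays. For genes that were undetected in many samples, such as Smyd1, Prdm6 and Setd7, the size of these differences depends on the Ct of 30 that stands for no detection.

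Setd7, which puts a single methyl group on histone H3 and on non-histone proteins such as p53, lies on chr3:51515318-51560823. It was detected in 26.8% of the stage samples (45 samples), and 150 other assays were detected more often. By stage it was detected in 4 of 11 MII oocytes (36.4%, exact 95% interval 10.9 to 69.2), 3 of 14 zygotes (21.4%, 4.66 to 50.8), 4 of 21 samples of the 2-cell stage, 3 of 7 of the 3-cell stage, 3 of 12 of the 4-cell stage, 5 of 27 of the 8-cell stage (18.5%, 6.30 to 38.1), 8 of 26 of the 16-cell stage and 15 of 50 of the 32-cell stage (interval 17.9 to 44.6). The intervals of all stages overlap, and they cover the number of samples only, with blastomeres of an embryo counted as if independent. Between MII oocytes and zygotes no difference was detectable at this number of samples (two-sided Fisher's exact test, p = 0.66). Where it was detected in MII oocytes its Ct lay between 19.6 and 22.6, and in zygotes between 22.9 and 23.1. All 9 late embryos had both blastomere samples with and samples without Setd7, from 1 of 6 to 3 of 5 samples. In single cells of the late stages it was found in 14 of 52 (26.9%), and in groups of 2 or more cells in 9 of 24 (37.5%, 18.8 to 59.4, an interval that holds the share of the single cells).

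The median control Ct was 13.0 in MII oocytes with Setd7 and 12.9 in those without, 13.3 and 13.0 in zygotes and 15.5 and 15.4 at the 8-cell stage. It was lower, meaning more template, with Setd7 than without at the other 5 stages: 15.9 and 16.5 at the 2-cell, 14.3 and 15.8 at the 3-cell, 14.5 and 15.3 at the 4-cell, 14.7 and 16.0 at the 16-cell, and 17.52 and 18.02 at the 32-cell stage. The part of template amount in detection was not tested. Setd7 was detected in all 6 whole morulae and blastocysts, at a Ct of 22.6, 20.9 and 19.3 in the morulae and 20.1, 20.8 and 22.6 in the blastocysts. It was also found in the isolated ICM (Ct 22.1) and the isolated TE (Ct 21.95). In whole embryos of earlier stages it was found in 1 of 3 at the 2-cell stage (Ct 21.9), 1 of 3 at the 4-cell stage (Ct 22.6) and 2 of 3 at the 8-cell stage (Ct 24.1 and 25.6). The stage tests gave Setd7 as higher at the 32-cell stage than in MII oocytes by 3.63 ± 1.56 (SE; adjusted p = 0.029, limma; 38.5% of all assays rose), but an undetected sample takes its level from its control genes alone, so this difference mixes detection with the control Ct and is not a level.

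**Figure D2:**
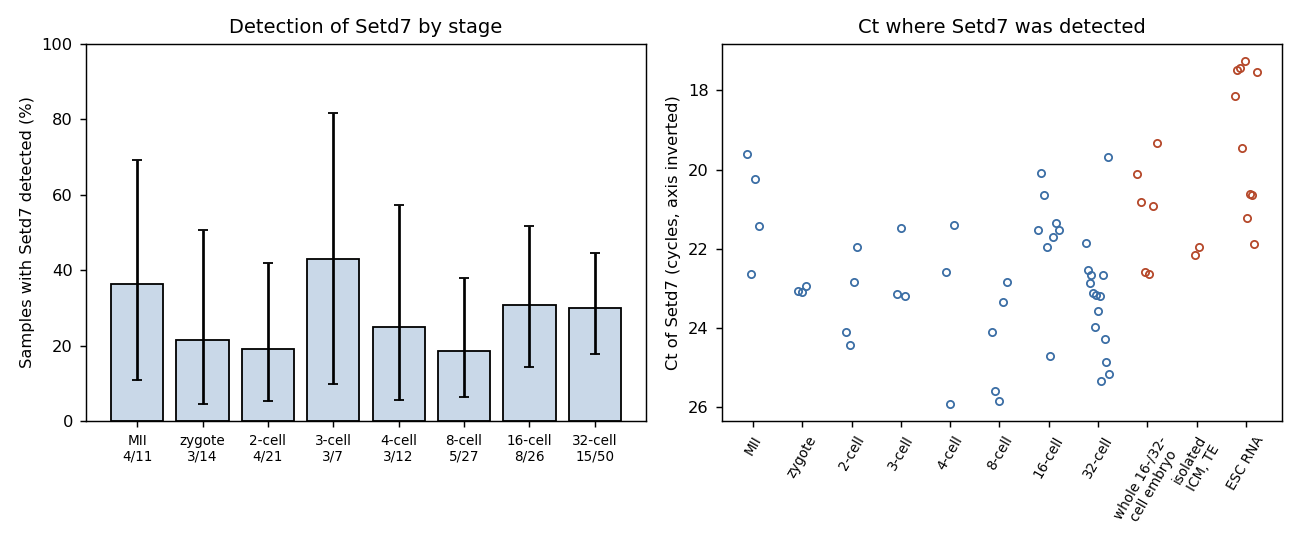
Left, share of samples in which Setd7 was detected at each stage (y axis, percent; bars, share; error bars, exact 95% binomial intervals; numbers, samples detected of samples measured). Right, Ct of Setd7 in the samples where it was detected (y axis, cycles, inverted so that more transcript is higher), with stage samples in blue and whole late embryos, isolated ICM and TE and ESC RNA in red. Shares lie between 18.5% and 42.9% with overlapping intervals, and only ESC RNA reaches a Ct under 19.

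Whole oocytes and embryos give the transcript content of an embryo without reference to control genes. For Setd3 the median Ct was 14.4 in MII oocytes and 14.5 in zygotes. The 3 embryos of the 2-cell stage had a Ct of 17.0, 17.5 and 18.6, those of the 4-cell stage 17.5, 17.6 and 17.7, and those of the 8-cell stage lay between 16.88 and 17.26, all above every oocyte and zygote. The morulae had 14.4, 12.9 and 13.0 and the blastocysts 15.8, 14.7 and 14.0. Setd6 followed the same course, with a median Ct of 13.2 in MII oocytes and 13.5 in zygotes, then 16.72, 16.61 and 17.97 at the 2-cell stage, 17.20, 18.27 and 17.49 at the 4-cell stage and 16.4, 15.6 and 18.6 at the 8-cell stage. Its morulae had 14.6, 12.7 and 13.2 and its blastocysts 15.6, 14.9 and 14.5. The content of Setd5 moved less before the morula, with median Ct of 14.4 and 14.5 in oocytes and zygotes and 15.4, 15.8 and 15.1 at the 2-cell, 4-cell and 8-cell stages. In the morulae Setd5 had 12.8, 11.3 and 11.4 and in the blastocysts 13.6, 12.9 and 12.0, lower in Ct than every earlier sample. The median Ct of Setd4 was 19.13 and 19.18 in oocytes and zygotes and 19.02 and 18.80 in 2-cell and 4-cell embryos, then 17.7, 14.6 and 17.4 in 8-cell embryos, morulae and blastocysts. How many other assays separate without overlap in these whole samples was not counted.

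In the test of these values (30 minus the Ct, limma over all passed assays), none of Setd3, Setd4, Setd5 and Setd6 passed from MII oocytes to zygotes (2.56% of all assays passed). From zygotes to 2-cell embryos Setd3 fell by 3.17 ± 0.33 (SE; adjusted p = 1.4e-10), Setd6 fell by 3.54 ± 0.40 (adjusted p = 9.4e-10) and Setd5 fell by 1.24 ± 0.32 (adjusted p = 0.00082), while Setd4 differed by -0.14 (adjusted p = 0.77). The median of all assays fell by 1.79 in this step and 77.6% of them passed. None of the 4 passed between 2-cell and 4-cell embryos (0.641% of all assays) or between 4-cell and 8-cell embryos (25.6%). From 8-cell embryos to morulae all 4 rose, Setd3 by 3.67, Setd6 by 3.35, Setd5 by 3.26 and Setd4 by 3.07 (adjusted p between 3.9e-09 and 2.4e-06), in a step in which the median of all assays rose by 2.79 and 80.1% passed. From morulae to blastocysts all 4 fell, Setd4 by 2.79, Setd6 by 1.51, Setd3 by 1.39 and Setd5 by 1.01, as did the median of all assays, by 2.46, with 65.4% passing. Relative to the 3 control genes, Setd5 was instead higher in blastocysts than in morulae by 0.90 (adjusted p = 0.030), and the difference also turned for Setd3 (0.51) and Setd6 (0.39). The control Ct was 10.2 (median) in the morulae and 12.5 in the blastocysts, and cell number, transcript per cell and recovery of RNA cannot be told apart in whole embryos.

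**Figure D3:**
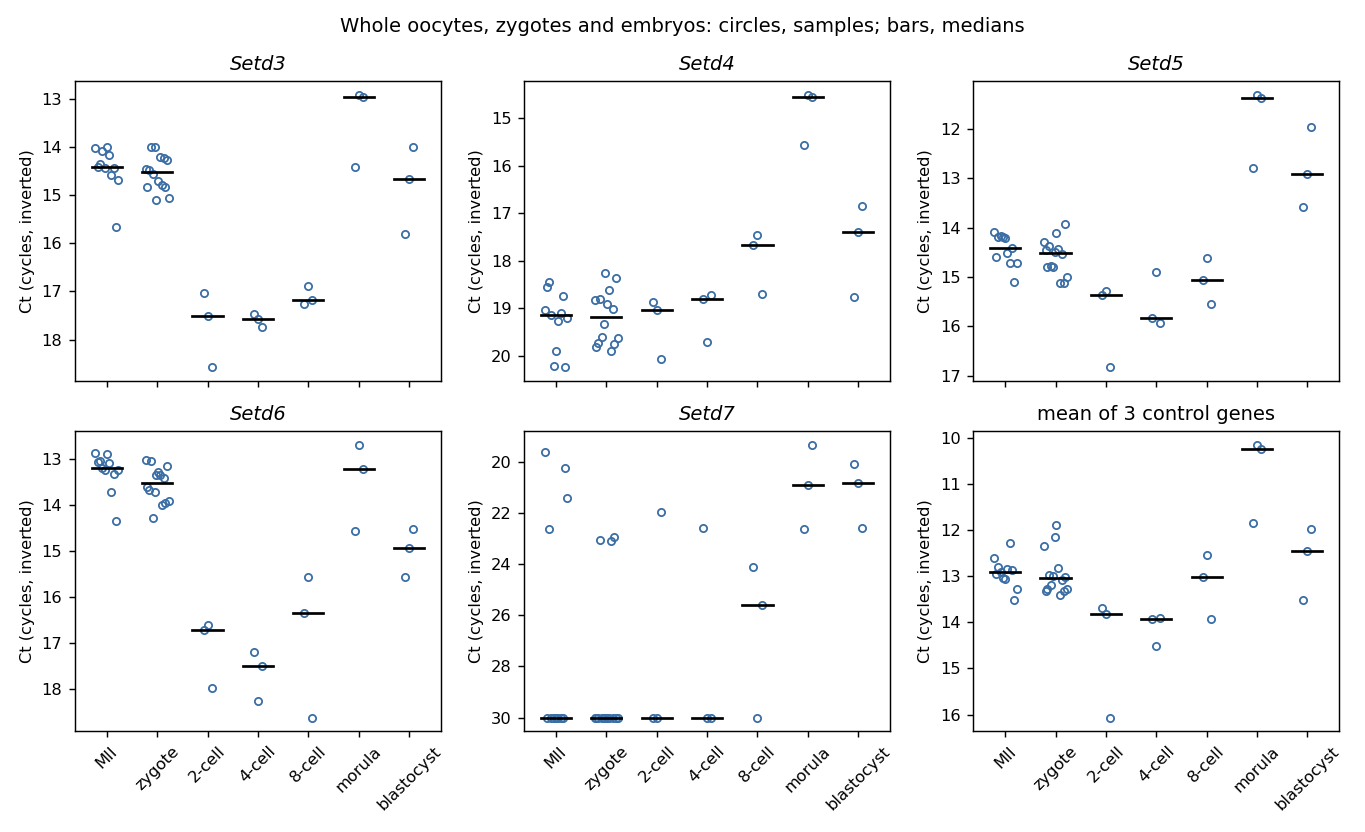
Ct of each member and of the mean of 3 control genes in whole oocytes, zygotes and embryos (y axis, cycles, inverted; x axis, stage). Circles are samples and bars medians. Setd3 and Setd6 show a higher Ct in all 2-cell, 4-cell and 8-cell embryos than in any oocyte or zygote, and Setd3, Setd4, Setd5 and the controls have their lowest median Ct at the morula. For Setd6 the medians of MII oocytes (13.19) and morulae (13.23) are nearly equal.

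Between blastomeres of the same embryo, Setd3 and Setd5 varied least among the members. Over 16 embryos with at least 3 blastomere samples, the median SD of the level within an embryo was 0.41 for Setd3 (0.20 to 0.92), 0.54 for Setd5 (0.18 to 1.04), 0.79 for Setd4 (0.03 to 4.62) and 0.87 for Setd6 (0.56 to 1.54). The same median over all assays was 0.73, and over the 63 assays that were detected in every sample it was 0.52. The highest SD of Setd4 came from an embryo of the 3-cell stage with undetected samples. In the 12 samples of an embryo of the 32-cell stage, Setd6 ran from -6.22 through -1.61 to -0.56 and Setd3 from -2.62 through -1.66 to -1.12. Among 3 aliquots of 200 pg ESC RNA the SD of the level was 0.12 for Setd3, 0.13 for Setd4, 0.05 for Setd5 and 0.17 for Setd6. The spread of repeats at the lower template of a single blastomere is not known from these, so how much of the spread between blastomeres is technical was not tested.

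In the late embryo, blastomeres differ in how far they lean to the ICM or the TE. A lineage score was formed as the mean level of 12 ICM genes minus that of 8 TE genes, none of them a member. The ICM genes were Esrrb, Ezh1, Klf2, Klf4, Pdgfra, Pecam1, Pou5f1, Prdm14, Scmh1, Sox2, Tet1 and Trim28. The TE genes were Cdx2, Dppa1, Gata3, Id2, Krt8, Lats2, Tead4 and Tspan8. The study chose both lists from correlations in these same late blastomeres. Over 76 blastomere samples of 9 embryos, Spearman's rho with this score was 0.48 for Setd6, 0.47 for Setd5, 0.29 for Setd4 and 0.07 for Setd3. Over the 136 assays outside the score the median rho was 0.09, with the 5th and 95th percentiles at -0.38 and 0.47. This background lacks the score genes, which were picked for their correlations. The samples share embryos, stage and control genes with the score, and no test was made. The levels of Setd5 also differed between stages, as its samples ran from -2.70 to -0.11 at the 16-cell stage and from -0.77 to 2.21 at the 32-cell stage. Within stages its rho was 0.19 over 26 samples and 0.21 over 50 samples, and the median within 8 embryos with at least 5 samples was 0.18, positive in 7 of 8 and in all 6 of the 32-cell stage. That sign depended on the reference. With the sample median as reference the median was 0.05, and without normalization 0.04, each positive in 4 of 8. In single-cell samples alone 2 of 4 embryos were positive. Over the assays outside the score, the median of such within-embryo medians was 0.07. For Setd6 the values within the stages were 0.33 and 0.41, with a median of 0.30 within embryos and a positive sign in 5 of 8. Setd4 had 0.69 at the 16-cell stage and 0.16 at the 32-cell stage, with a median of 0.43 within embryos, positive in 6 of 8. Setd3 had 0.21 and -0.31. Without normalization rho turned to -0.03 for Setd5 and -0.08 for Setd6.

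**Figure D4:**
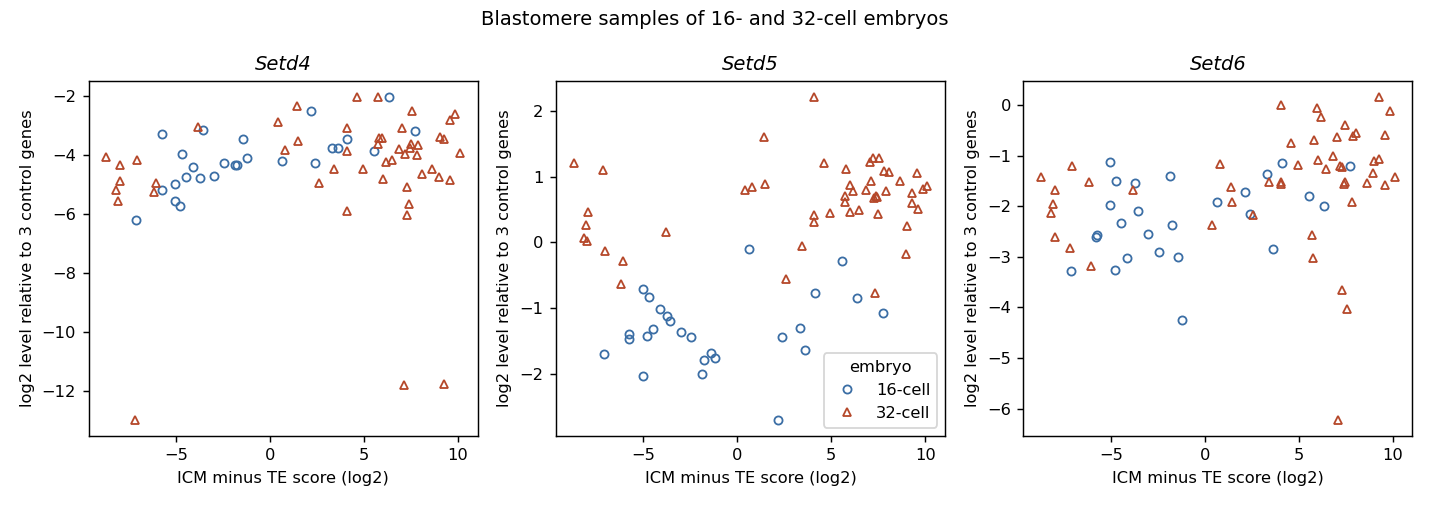
Levels of Setd4, Setd5 and Setd6 (y axis, log2 level relative to 3 control genes) against the lineage score (x axis, mean of 12 ICM genes minus mean of 8 TE genes, log2) in 76 blastomere samples. Blue circles are samples of 16-cell embryos and red triangles of 32-cell embryos. Setd5 separates by stage more than by score, and the 3 lowest points of Setd4 are samples in which it was not detected.

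The isolated ICM and TE were single samples, so no test was possible. Setd5 had a level of -0.13 in the ICM and -0.34 in the TE, Setd3 -1.99 and -1.72, Setd4 -4.57 and -4.77, and Setd6 -1.76 and -2.57. Of these 4, Setd6 had the widest gap, the ICM being higher, and with TE markers present in the ICM sample the contrast between the tissues is not clean.

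RNA of ESC, pluripotent cells that are derived from the ICM, had been measured at several amounts and gives the response of each assay. Across its 10 samples of 25 to 800 pg, the level of Setd5 was 0.70 to 1.96, of Setd6 -0.83 to 0.72, of Setd3 -1.97 to -0.92, of Setd4 -4.39 to -2.69 and of Setd7 -3.93 to -2.34. Setd7 was detected in all 10, with a Ct of 21.2 at 25 pg, 20.6 at 50 pg, 19.4 at 100 pg and 17.3 at 200 pg in the series of 4 amounts. In the blastomere samples of the 32-cell stage where it was detected, its level ran from -8.45 through -5.87 to -4.30, below every ESC sample. The gain in signal per doubling of RNA was 0.93 to 1.17 for Setd3, Setd4, Setd5 and Setd6 in the series of 4 amounts and 1.03 to 1.18 in the series of 3, and for Setd7 it was 1.30 and 0.94. A value of 1 is an exact response. The control genes, which every level subtracts, gained 1.00 and 1.24 (Hnrnpr), 1.12 and 0.92 (Ssu72) and 1.28 and 1.20 (Ube2e1). What this does to levels at low template was not tested.

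**Figure D5:**
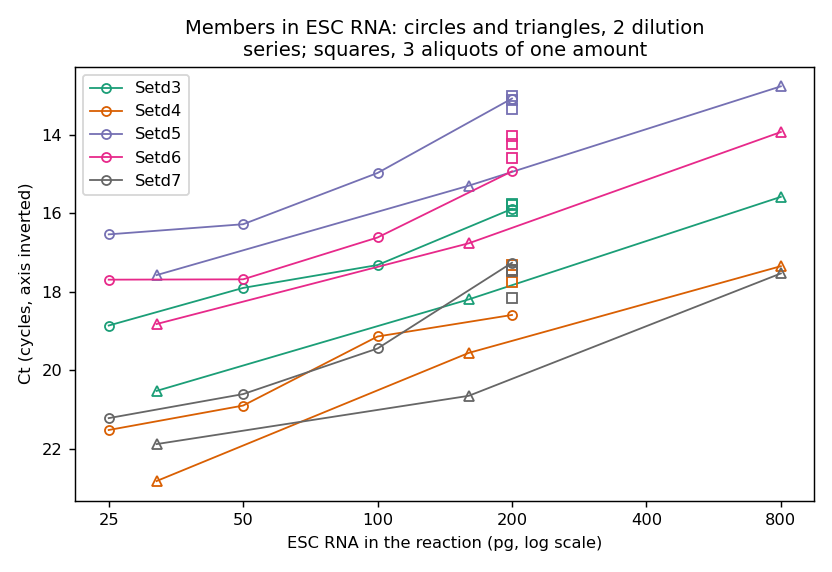
Ct of the 5 members (y axis, cycles, inverted) against the amount of ESC RNA in the reaction (x axis, pg, log scale). Circles and triangles joined by lines are the dilution series of 4 and of 3 amounts and squares are 3 aliquots of 200 pg. All 5 members were detected at each amount down to 25 pg. Within each series their Ct fell as RNA increased, least for Setd6 between 25 and 50 pg (17.69 and 17.68). The series were offset from each other, as Setd7 had a Ct of 17.26 at 200 pg in the series of 4 and 17.53 at 800 pg in the series of 3.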

How the data were processed

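The authors deposited Ct values (a score of PCR cycles) of 192 assays in 189 samples, obtained after 18 cycles of target-specific preamplification on BioMark chips, with undetected assays set to 30. A second deposited table holds log2 values, which equal 30 minus Ct after subtracting the mean of Gapdh, Hspa8 and Lmnb1, although the methods name Hnrnpr, Ssu72 and Ube2e1. All 3 of the former are marked as failed in that table, so levels were computed from the Ct with the latter. Blastomeres were averaged within an embryo and the means of 58 oocytes or embryos were fitted with limma 3.58.1 (lmFit and eBayes, R 4.3.3) with all 8 stages, adjusted over all passed assays, after a test on simulated data. Nothing in the labels ties replicates to separate matings or days. Detection was compared with Fisher's exact test (scipy 1.17.1). 36 failed assays and 3 samples that the study left out were not used. The precision is limited by the number of samples and template, and qPCR gives no read depth. Members were named by the SETD rule, likeness was Pearson's r over stage means (the 3 highest, of which 1 for Setd5 is not reported here), and the lists of other SET genes were given by counts. The members and lists were chosen with earlier results of these data known. Promoter windows came from RefSeq (GRCm38.p6), which held all 5 members.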

Additional observations from a re-analysis of the deposited data

Results flagged for a closer look

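Among the values of Setd3, Setd4, Setd5 and Setd6 in stages with 4 to 10 oocytes or embryos, 1 embryo of 16 groups tested stood far from the others. It was a whole 4-cell embryo with a Setd5 level of -0.39, while the next embryo had -1.59 and the median of the 6 embryos was -1.83. The gap to the next embryo was 0.70 of the range of the 6 embryos. How often chance alone gives such a value among 16 groups was not tested. The Setd5 Ct of this embryo was 14.9, against 15.8 and 15.9 in the other 2 whole 4-cell embryos.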

How the results depend on the processing

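The 4 well-detected members passed 7 of their successive steps, in which 1.92% to 68.6% of all assays passed. The count was 4 with the sample median as reference, 4 without normalization and 4 with the deposited normalized table, and leaving out each embryo of the 3-cell and 16-cell stages, or the outlying 4-cell embryo, gave 4 to 8. In whole oocytes and embryos 11 steps passed, 7 relative to the 3 control genes, and 8 to 13 when each embryo was left out in turn. Without normalization, 0.641% to 80.1% of all assays passed in a step of these whole samples. Numbers in the labels did not pair the samples: deviations from the group means of equally numbered samples had a median correlation of -0.12 for oocytes and zygotes and of -0.03 for embryos. With the replicate number as a block, 0 members passed from MII oocytes to zygotes, as without it (0), and 5 embryo steps passed in place of 8.

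Differences given above that changed sign did so with the reference. With the deposited normalized table these were Setd3 between 8- and 16-cell (-0.43), 8- and 32-cell (-0.96) and 16- and 32-cell embryos (-0.53), Setd6 between 8- and 16-cell (-0.44), 16- and 32-cell (-0.29) and 4- and 32-cell embryos (-0.88), Setd5 between 8- and 16-cell (-0.97) and 8- and 32-cell embryos (-0.12), and Setd4 (-1.44) and Setd5 (-1.80) from MII oocytes to late embryos. Without normalization they were Setd4 from MII oocytes to the 4-cell stage (-0.41) and to late embryos (-2.18), Setd5 to late embryos (-2.54), between 8- and 16-cell (-0.46) and between 8- and 32-cell embryos (-0.42), Setd3 between 8- and 32-cell (-1.26) and 16- and 32-cell embryos (-1.35), and Setd6 between 4- and 32-cell (-0.67) and 16- and 32-cell embryos (-1.11). Differences not given above turned too, among them, with the deposited table and without normalization: Setd3 (-1.54 and -1.33) and Setd5 (-0.91 and -0.70) between 4- and 32-cell embryos, and Setd6 (-0.73 and -1.03) and Setd4 (-2.32 and -2.61) between 8- and 32-cell embryos. Without normalization Setd4 (-2.38) and Setd5 (-2.58) turned from zygotes to the 2-cell stage. With the sample median Setd5 from MII oocytes to the 8-cell stage was 0.22. In whole samples relative to the control genes, Setd5 from zygotes to the 2-cell stage was 0.35, and from morula to blastocyst Setd3 was 0.51, Setd5 0.90 and Setd6 0.39. Stage differences without normalization also carry the amount of material, as samples held single cells, groups of cells or whole embryos. The cause was not tested.

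For the lineage score, rho without normalization was -0.40 for Setd3, -0.12 for Setd4, -0.033 for Setd5 and -0.080 for Setd6, and in 16-cell samples alone 0.69 for Setd4 and 0.19 for Setd5. Other limits of detection for Setd7 were a level above -10, met by 41 samples, 1 of them undetected with little template, and a Ct under 25, met by 40. Neither changed the outcome between oocytes and zygotes (p = 0.35 and 0.66, exact).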
